A study of Mus musculus with 180 samples.

Results

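The 10 genes linked to FOXO transcription factors and to repression by PI3K signaling, namely Cxcr4, Irs2, Il7r, Sesn1, Pik3ip1, Ccng2, Foxo1, Foxo3, Bcl6 and Cited2, were followed across a panel of clinical kinase inhibitors (CKIs) in mouse macrophages. They are 10 of the 45070 genes in the table and were chosen by symbol with earlier results of these data in view, because they had stood out under inhibitors of PI3K, AKT and mTOR. Their difference between those CKIs and the rest is therefore given as a description and not as a test. All 10 were tested, since the average over the 180 samples reached 10 normalized units for each. The label held in part only. Under Omipalisib 9 of the 10 genes were higher than in DMSO and Sesn1 was lower. Under the 2 AKT inhibitors no member passed the threshold with all 6 DMSO samples. Without 1 DMSO library, which was the highest of the 6 for 7 of the 10 genes, 4 members passed under MK2206. Leaving out a high control favors higher calls, and calls over all genes rose as well. Without replicate 2 of every group, in contrast, 13 of 34 member calls under inhibitors of PI3K, AKT and mTOR were lost.

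The samples were wild type bone marrow-derived macrophages (BMDM) from mice, which are macrophages grown in culture from marrow precursors. All of them received LPS, the bacterial ligand of TLR4, at 10 ng/ml for 2 h, after 1 h with 1 of 58 CKIs (3 samples each) or with the vehicle DMSO (6 samples in 2 sets of 3), so no unstimulated cells were compared here. Of the CKIs, 9 were grouped by PI3K, AKT or mTOR as designated target: Apitolisib, BGT226, Omipalisib and PF04691502 (PI3K and mTOR), AZD2014 (mTOR), AZD8186 and TG100115 (PI3K isoforms), and GSK2110183 and MK2206 (AKT). They are called PI3K axis CKIs below, and the remaining 49 are called other CKIs. The latter include Midostaurin, a multikinase inhibitor for which AKT is 1 of several designated targets. Each CKI was used at a concentration set by its affinity for the kinase it was meant to hit in this study, which was often not PI3K, so that concentrations differed within the PI3K axis. Values of these CKIs are therefore set side by side, and a difference between 2 of them is not a difference between compounds at matched dose.

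PI3K makes the lipid that brings AKT to the plasma membrane, and active AKT phosphorylates FOXO factors and keeps them out of the nucleus. When the pathway is blocked, FOXO factors enter the nucleus and bind promoters of genes of growth arrest, nutrient sensing and cell migration. mTOR complexes act both upstream of AKT and downstream of it, on translation, lipid synthesis and lysosomes. Among the 10 genes, Cxcr4 and Il7r encode receptors, Irs2 and Pik3ip1 encode regulators acting upstream in the PI3K pathway, Foxo1 and Foxo3 encode the factors themselves, Ccng2 and Sesn1 encode an unconventional cyclin and a stress-induced mTORC1 regulator, and Bcl6 and Cited2 encode a transcriptional repressor and a transcriptional co-regulator.

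Promoter windows of the 10 genes, from RefSeq on GRCm38.p6 and reaching from 250 bases before to 50 bases after each start (12 windows, since Sesn1 and Bcl6 have 2 each), were searched on both strands for 3 motifs. The FOXO element GTAAACA was present in 1 window, a window of Sesn1, against 3.65% of all 32851 windows. The insulin response element CAAAACA was present in 2 windows, of Irs2 and Ccng2, against 6.28% of all windows. The E-box CACGTG was present in 3 windows, of Irs2, Cited2 and Bcl6, against 7.15% of all windows. A match describes the letters only. The 4 stretches below are shown because 3 of them hold a match of the FOXO element or the insulin response element and Cxcr4 had the largest fold changes below: the 250 bases before the start of Irs2 (chr8:11008930-11009179, minus strand), Ccng2 (chr5:93267323-93267572, plus strand) and Cxcr4 (chr1:128592300-128592549, minus strand), and 27 bases around the match of Sesn1 (chr10:41810586-41810612, plus strand), which lies 23 bases into the transcript. Capitals mark the motif matches, read 5′ to 3′ on the strand of the gene.
Irs2: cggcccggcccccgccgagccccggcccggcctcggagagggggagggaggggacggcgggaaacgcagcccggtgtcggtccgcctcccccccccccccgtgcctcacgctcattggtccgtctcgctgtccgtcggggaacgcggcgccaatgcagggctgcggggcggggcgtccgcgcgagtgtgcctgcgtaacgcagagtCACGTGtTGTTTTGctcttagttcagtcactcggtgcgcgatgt
Ccng2: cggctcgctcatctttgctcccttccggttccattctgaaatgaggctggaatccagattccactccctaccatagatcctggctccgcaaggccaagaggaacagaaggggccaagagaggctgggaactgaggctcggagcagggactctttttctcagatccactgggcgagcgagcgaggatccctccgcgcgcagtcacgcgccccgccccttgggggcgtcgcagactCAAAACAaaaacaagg
Cxcr4: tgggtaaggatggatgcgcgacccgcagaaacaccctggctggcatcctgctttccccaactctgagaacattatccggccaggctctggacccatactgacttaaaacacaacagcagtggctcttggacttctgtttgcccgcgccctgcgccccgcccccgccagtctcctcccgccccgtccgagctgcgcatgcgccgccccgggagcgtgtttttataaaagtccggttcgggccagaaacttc
Sesn1: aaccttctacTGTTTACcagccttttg
In Irs2 the E-box and the insulin response element, read on the opposite strand as TGTTTTG, stand 1 base apart. The Cxcr4 stretch holds none of the 3 motifs.

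The summed normalized values were alike in the 3 sets of samples, from 9481416 to 11094387 in DMSO, from 9559895 to 12273349 in the PI3K axis CKIs and from 9477340 to 12179078 in the other CKIs. Macrophage markers such as Csf1r and Adgre1 were high throughout, with a summed value of at least 90697. Cxcr4 and Il7r are known from lymphocytes, and the T cell receptor genes Cd3d, Cd3e and Cd3g had mean values of at most 0.26 in each set. Lck and Cd247 were higher, with means of 50.3 and 23.8 in DMSO and 37.5 and 35.0 in the PI3K axis CKIs. The 8 T cell markers summed to 48 to 133 in DMSO and 32 to 180 in the PI3K axis CKIs. The 8 B cell markers summed to 329 to 824 in DMSO and 361 to 1699 in the PI3K axis CKIs, highest in BGT226 (903 to 1699). Most of that sum was Blnk, and the part of these cells in the results was not tested. The share of mitochondrial transcripts was 0.759 to 1.95% in DMSO and 0.581 to 4.45% in the PI3K axis CKIs. One DMSO library, replicate 1 of set 2, was the highest of the 6 for 7 of the 10 genes, and the calls that depend on it are given below. No gene differed between the 2 DMSO sets at an adjusted p-value below 0.05 in limma, 2.44% of genes had an unadjusted p-value below 0.05, and none of the 10 genes was among them.

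In DMSO the levels per kilobase (kb) of transcript were highest for Ccng2 and lowest for Foxo1. Ccng2 had a mean normalized value of 192 per kb, Il7r 132, Cited2 109 and Sesn1 80.3, followed by Bcl6 at 36.6 and Pik3ip1 at 16.05. Cxcr4 stood at 10.3 per kb, Irs2 at 5.5, Foxo3 at 4.71 and Foxo1 at 1.71. The spread between the 6 DMSO samples was widest for Cxcr4, with a coefficient of variation of 110%, and smallest for Cited2, with 14.8%. Foxo1, with a mean of 9.5 in DMSO, carries a large counting error, and small differences in it were not detectable. Reads were counted without strand information as far as the library protocol tells, and exons of Irs2, Pik3ip1, Foxo1 and Bcl6 overlap an antisense gene over 2.56%, 2.13%, 7.78% and 0.313% of their exonic bases in GENCODE vM21, so reads from those partners cannot be told apart.

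Cxcr4 (mm10, chr1:128588199-128592299), the receptor of the chemokine CXCL12, showed the widest range of the 10 genes. Its normalized values in the 6 DMSO samples were 31, 12, 4, 55, 2 and 8. With BGT226 they were 489, 384 and 221, with Omipalisib 350, 535 and 214, and with PF04691502 182, 90 and 101. All 9 of these samples lay above every DMSO sample. The log2 fold change on the scale of log2(value + 1), with its standard error (SE) of 0.53, was 4.84 in BGT226, 4.83 in Omipalisib and 3.30 in PF04691502, or 28.7-fold, 28.4-fold and 9.86-fold. AZD2014 gave 78, 60 and 70, also above every DMSO sample, with a log2 fold change of 2.53. Apitolisib gave 85, 29 and 50, which overlapped DMSO, with a log2 fold change of 2.07. The PI3K isoform and AKT inhibitors stood between 16 and 69 in single samples, with log2 fold changes of 1.61 in AZD8186, 1.54 in TG100115, 1.499 in GSK2110183 and 1.62 in MK2206, and none of the 4 passed the threshold. These 4 values lay above the median of the 49 other CKIs, which was 1.35, but below the highest of them at 2.80, and Cxcr4 was above its DMSO mean in all 49. DMSO had the lowest mean of Cxcr4 of the 59 groups. In bulk RNA, more cells that express a gene and more RNA per cell cannot be told apart, here and in the results that follow.

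Il7r (mm10, chr15:9506159-9529876), the receptor chain for interleukin-7, was higher in 2 CKIs. The DMSO values were 568, 367, 307, 676, 243 and 374. BGT226 gave 1903, 1655 and 1005, which lay above every DMSO sample, with a log2 fold change of 1.88 (SE 0.30). Omipalisib gave 1094, 1114 and 641, of which the lowest fell below the highest DMSO sample, with a log2 fold change of 1.21. Without replicate 2 of every group this call was lost (adjusted p = 0.157 in limma). The other 7 PI3K axis CKIs had mean values between 374 in AZD8186 and 656 in TG100115 and did not pass the threshold.

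Irs2 (mm10, chr8:10984681-11008929), the adaptor that links insulin and IGF receptors to PI3K, was higher in 4 CKIs. The DMSO values were 49, 34, 19, 52, 36 and 34. BGT226 gave 271, 351 and 151, Omipalisib 176, 263 and 121, PF04691502 137, 144 and 90, and AZD2014 87, 103 and 73. All 12 samples lay above every DMSO sample, with log2 fold changes of 2.74, 2.287, 1.74 and 1.26 (SE 0.38). Apitolisib (87, 53 and 82) and GSK2110183 (86, 96 and 61) also lay above every DMSO sample, with log2 fold changes of 1.00 and 1.14, but did not pass the threshold.

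Pik3ip1 (mm10, chr11:3330731-3342971), a transmembrane inhibitor of PI3K, was higher in Omipalisib and BGT226 and did not pass the threshold in the other 7. The DMSO values were 38, 39, 31, 36, 49 and 23. Omipalisib gave 51, 77 and 84 and BGT226 60, 58 and 73, all above DMSO, with log2 fold changes of 0.96 and 0.83 (SE 0.33). These calls were lost in 5 and 10 of 22 alternatives, among them for both the fit without DMSO set 2 replicate 3 (adjusted p up to 0.338 and 0.394 in limma over the alternatives). MK2206 gave 29, 16 and 18, the lowest mean of the PI3K axis, with a log2 fold change of -0.76 that did not pass the threshold.

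Foxo3 was called higher in 4 CKIs and Foxo1, which had the lowest level per kb of the 10 genes, in 2. Foxo3 (mm10, chr10:42181845-42276695) had DMSO values of 35, 33, 17, 68, 19 and 20. It gave 94, 123 and 74 with Omipalisib, 92, 87 and 86 with PF04691502, 91, 94 and 48 with BGT226, and 98, 60 and 49 with Apitolisib. Omipalisib and PF04691502 lay above every DMSO sample, while BGT226 and Apitolisib overlapped the 1 high DMSO library. The log2 fold changes were 1.71, 1.61, 1.36 and 1.19 (SE 0.36), and all 4 passed the threshold. Foxo1 (mm10, chr3:52268337-52350109) had DMSO values of 6, 10, 8, 19, 5 and 9. PF04691502 gave 39, 20 and 23 and Omipalisib 14, 26 and 22, with log2 fold changes of 1.49 and 1.12 (SE 0.39). Only the former lay above every DMSO sample, and the calls were lost in 4 and 8 of 22 alternatives. BGT226, with 8, 9 and 12, stood at the level of DMSO.

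Ccng2 (mm10, chr5:93267573-93276231), a cyclin associated with cell cycle arrest, was higher in 4 of the 5 CKIs that include mTOR. In DMSO Ccng2 had values of 546, 472, 403, 584, 506 and 367. Omipalisib gave 1398, 1345 and 1302, BGT226 1206, 935 and 941, and PF04691502 1297, 882 and 1022. All 9 samples lay above every DMSO sample, and the 3 Omipalisib samples lay above every sample of the other PI3K axis CKIs. The log2 fold changes were 1.51, 1.11 and 1.15 (SE 0.18). AZD2014 gave 844, 512 and 720, with a log2 fold change of 0.52 (adjusted p = 0.033 in limma). That call was lost in 11 of 23 alternatives, including each DMSO set alone and the fits without replicate 1, 2 or 3 of every group. Apitolisib, also a PI3K and mTOR inhibitor, gave 492, 425 and 363, and the PI3K isoform and AKT inhibitors had means between 360 and 483.

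Sesn1 (mm10, chr10:41810574-41908436), sestrin 1, ran against the label of the set. DMSO samples had Sesn1 values of 216, 187, 387, 214, 247 and 357. Omipalisib gave 78, 116 and 51, all below every DMSO sample, with a log2 fold change of -1.73 (SE 0.30) and an adjusted p-value of 1.37e-06 in limma. Its mean was the lowest of the 59 groups. PF04691502 (144, 190 and 157) and AZD2014 (164, 228 and 147) had log2 fold changes of -0.66 and -0.55, which did not pass the threshold, and Apitolisib (305, 255 and 339) stood at 0.21. The fall in Omipalisib passed the threshold in each of 23 alternative settings, with log2 fold changes from -2.15 to -1.17.

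Bcl6 (mm10, chr16:23965050-23988852), a repressor known from germinal center B cells that also acts in macrophages, was higher in the 5 CKIs that include mTOR. The DMSO values were 210, 127, 161, 319, 107 and 178. PF04691502 gave 664, 426 and 496 and Apitolisib 526, 334 and 422, all above DMSO, with log2 fold changes of 1.59 and 1.28 (SE 0.30). BGT226 (531, 386 and 229), AZD2014 (371, 283 and 408) and Omipalisib (446, 474 and 198) overlapped DMSO, with log2 fold changes of 1.06, 1.02 and 1.01. The call in PF04691502 passed in all 23 alternatives. Those in Apitolisib, AZD2014, Omipalisib and BGT226 were lost in 7, 5, 5 and 2, each of them without replicate 2 of every group.

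Cited2 (mm10, chr10:17723228-17725674), a co-regulator that binds CBP and p300, changed by less but with little spread. The DMSO values were 239, 228, 159, 236, 230 and 193. The same 5 CKIs lay above every DMSO sample. PF04691502 gave 583, 323 and 375, AZD2014 413, 326 and 415, Omipalisib 335, 392 and 308, BGT226 361, 307 and 257, and Apitolisib 303, 312 and 294. The log2 fold changes were 0.96, 0.85, 0.69, 0.52 and 0.51 (SE 0.16), and all 5 passed the threshold. The calls in the first 3 passed in all 23 alternatives, while that in BGT226 was lost in 4 and that in Apitolisib in 11. TG100115 (254, 253 and 258) and MK2206 (296, 301 and 267) also lay above every DMSO sample without passing it.

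**Figure D1:**
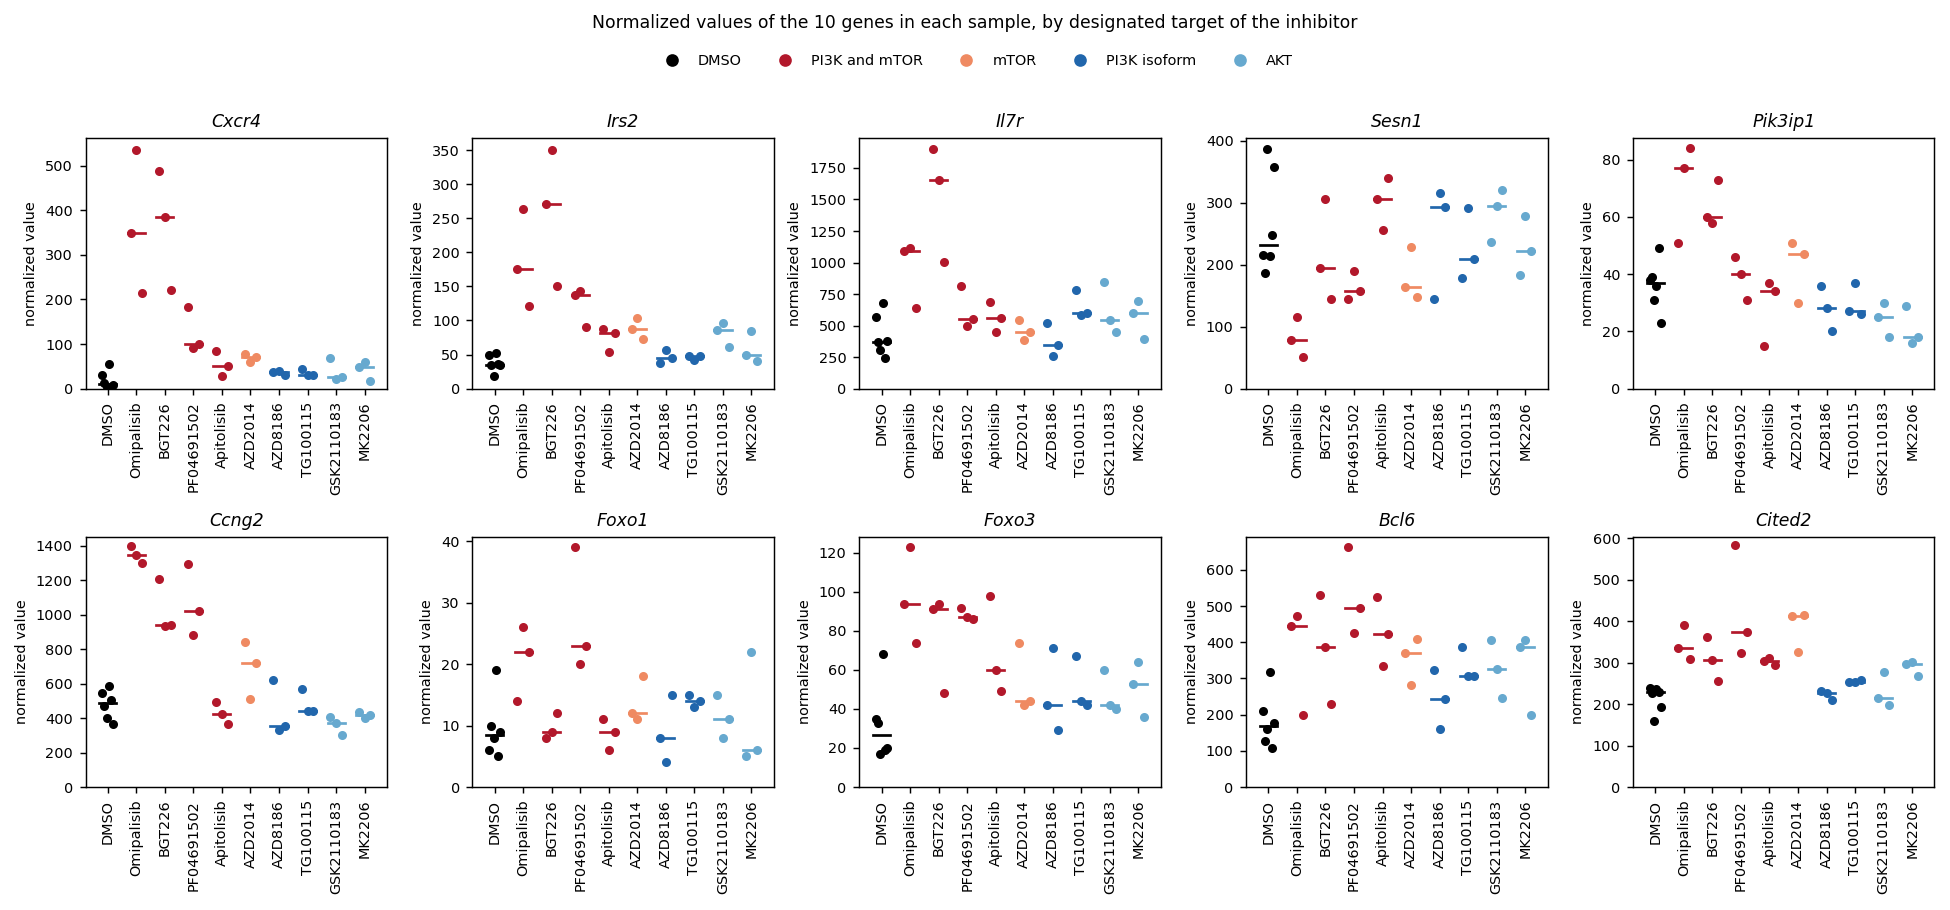
Normalized values (linear axis from 0) of the 10 genes in each of the 6 DMSO samples and the 3 samples of each PI3K axis CKI, colored by designated target, with a line at each group's median. Cxcr4 reached 535 in Omipalisib against at most 55 in DMSO, and Sesn1 fell to 51 in Omipalisib against at least 187 in DMSO.

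Counted by CKI, the members called by limma at an adjusted p-value below 0.05 are set beside the share of all 12714 tested genes called in the same direction. Omipalisib had 9 of 10 higher and 1 lower, against 17.5% and 8.16% of all genes. BGT226 had 8 higher and 0 lower, against 24.1% and 6.32%. PF04691502 had 7 higher and 0 lower, against 8.86% and 4.22%. AZD2014 had 5 higher and 0 lower, against 6.06% and 13.5%, where more genes in all were lower than higher. Apitolisib had 4 higher and 0 lower, against 12.7% and 3.2%. Because the members were chosen for these CKIs, nothing is read from the excess over the background.

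No member was called in the 4 CKIs that are limited to PI3K isoforms or AKT when all 6 DMSO samples were used. Without DMSO set 2 replicate 1, the calls were Cxcr4 in AZD8186, Cxcr4, Il7r, Foxo3 and Bcl6 in TG100115, Cxcr4, Foxo3, Bcl6 and Cited2 in MK2206, and 0 in GSK2110183. The share of all genes in each CKI was not computed for that fit. Over the 9 PI3K axis CKIs together it rose from 7.8% to 11.6% of pairs higher, so nothing is read from these added calls. With all 6 DMSO samples, an unadjusted p-value below 0.05 was reached by 1 in AZD8186, 4 in TG100115, 4 in GSK2110183 and 5 in MK2206. The shares of all genes were 6.98%, 26.1%, 10.9% and 26.3%. At the adjusted threshold, again with all 6, AZD8186 had 0% of genes higher and 0.228% lower, and TG100115 had 0.0236% higher and 0% lower. GSK2110183 had 0% in both directions, and MK2206 had 0.983% higher and 0.834% lower. With the replicate number as a block, which pairs the samples of Apitolisib, AZD8186, TG100115 and GSK2110183 with those of DMSO, the members called higher were 5 in Apitolisib, 1 in AZD8186 (Cxcr4), 3 in TG100115 (Cxcr4, Il7r and Bcl6) and 0 in GSK2110183. The shares of all genes called higher with the block were 20.5%, 0.0865%, 10.8% and 0%.

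Over the 90 pairs of member and PI3K axis CKI, 33 were higher and 1 was lower, where 7.8% of all gene and CKI pairs were higher and 4.05% lower. Without the high DMSO library, replicate 1 of set 2, 44 were higher, with 11.6% of all pairs, and without replicate 2 of every group 20 were higher, with 3.68% of all pairs. Beside the calls named above, leaving out that library added Irs2 in Apitolisib and Foxo3 in AZD2014 and lost none. The 4 calls in Apitolisib were lost in 7 to 11 alternatives each, among them DMSO set 1 alone and the fits without replicate 2 or 3 of every group. The share of mitochondrial transcripts was 1.49 to 4.04% in its 3 samples. With that share as a covariate beside the replicate block, 0 members passed in Apitolisib, 6 in PF04691502 and 8 in BGT226. In AZD2014 6 passed, and in Omipalisib 10, counting Sesn1. Over all genes in the 9 CKIs, that fit called 8517 of 114426 pairs higher, where the block alone called 14863. The share of all genes in each CKI was not computed for that fit. When the samples were scaled again by the median of ratios, the all-gene log2 fold change shifted by -0.199 in BGT226, -0.154 in TG100115, -0.115 in Apitolisib, -0.105 in Omipalisib and -0.104 in PF04691502. The share of higher genes among all calls in the 9 CKIs went from 65.8% to 45.6%. Of the 34 calls in members, 2 were lost under this scaling (Pik3ip1 and Cited2 in BGT226) and none changed direction.

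The difference between the classes, taken as the median of the 9 PI3K axis group means minus the median of the 49 other group means on the log2 scale, was largest for Cxcr4 at 0.72 and Irs2 at 0.72. The SD of this difference over the 3 replicate numbers was 0.20 for Cxcr4 and 0.06 for Irs2. It was 0.45 for Bcl6 (SD 0.19), 0.39 for Cited2 (SD 0.13), 0.27 for Il7r (SD 0.17), 0.25 for Foxo3 (SD 0.19) and 0.24 for Ccng2 (SD 0.18). Pik3ip1 at 0.07 (SD 0.19), Foxo1 at -0.05 (SD 0.22) and Sesn1 at -0.09 (SD 0.23) differed by less than their spread. For Cxcr4 all 9 PI3K axis means lay above the median of the other CKIs, and 3 lay above the highest other CKI. For Ccng2 4 lay above the highest other CKI, and for Sesn1 none did. Most class differences were much smaller than the changes under Omipalisib or BGT226. Apitolisib and the PI3K isoform and AKT inhibitors lay within the range of the other CKIs for all 10 genes.

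**Figure D2:**
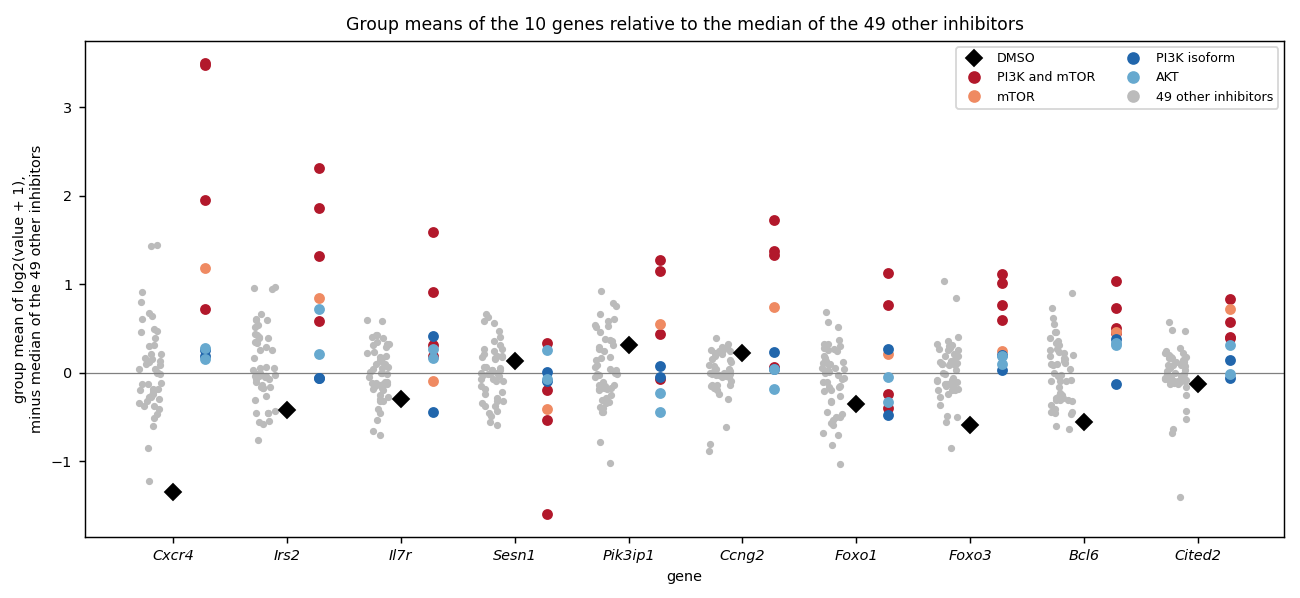
Group means of log2(value + 1) for the 10 genes, minus the median of the 49 other CKIs, which are shown as gray points. Diamonds mark DMSO and colored points mark the PI3K axis CKIs. DMSO lies at the bottom for Cxcr4, so that log2 fold changes of this gene against DMSO are above 0 in all 49 other CKIs.

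Since the members were chosen on these samples, differences among the 9 CKIs are given as a description. A moderated F statistic for the 9 CKIs, with the spread estimated from all groups, passed the threshold for 8 of the 10 genes and for 37.8% of all genes, and nothing is read from that excess. Ccng2 had the largest F of 22.7, followed by Cxcr4 with 10.0 and Irs2 with 7.05. Foxo3 and Bcl6, with F of 1.95 and 1.6, did not pass without the replicate block. The order of the CKIs differed between genes. BGT226 was first for Cxcr4, Irs2 and Il7r, Omipalisib for Ccng2, Foxo3 and Pik3ip1, PF04691502 for Foxo1, Bcl6 and Cited2, and Apitolisib for Sesn1. Most neighbors in these orders overlapped. For Cxcr4 2 of the 9 neighboring pairs, counting DMSO, did not overlap (Omipalisib over PF04691502, and PF04691502 over AZD2014), and for Ccng2 2 (Omipalisib over PF04691502, and BGT226 over AZD2014). Pik3ip1 had 1 such pair (BGT226 over AZD2014), Sesn1 1 (PF04691502 over Omipalisib) and Cited2 1 (MK2206 over TG100115), and the remaining 5 genes had none.

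Across the 49 other CKIs, 490 pairs of member and CKI were tested, of which 21 were higher and 6 lower, in 12 CKIs. The background was 1.55% of gene and CKI pairs higher and 1.21% lower. With the replicate block the counts were 52 and 10, but the background above is from the fit without the block. The block also raised calls over all genes, from 7.8% to 13% of pairs higher in the 9 PI3K axis CKIs. Among the 49 other CKIs, the number of all genes called higher was not lower with the block in any CKI. It went from 2031 to 2896 in Pimasertib and from 1147 to 2645 in Tofacitinib, and stayed at 0 in Ruxolitinib. No share over the 49 was formed from these counts, so nothing is read from the rise in member calls. Of the higher calls 8 were of Cxcr4, 5 of Bcl6, 3 of Irs2, 2 of Foxo3, 2 of Cited2 and 1 of Il7r. Among the 59 groups DMSO ranked 59 for Cxcr4, 58 for Foxo3 and 57 for Bcl6 from the highest mean. Compared with each other without DMSO, the 49 CKIs differed for 6 of the 10 genes (Irs2, Sesn1, Pik3ip1, Ccng2, Bcl6 and Cited2), against 26.3% of all genes. Cited2 had the largest F of 5.94 (adjusted p = 1.27e-13), followed by Ccng2 with 2.97 (adjusted p = 1.32e-05). Cxcr4 did not pass (adjusted p = 0.195; 0.000139 with the replicate block).

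Pimasertib, a MEK inhibitor, had the most member calls outside the PI3K axis, 6 of 10 higher. Of all 12714 tested genes 2031 were higher and 722 lower, or 21.7% in either direction. Its Bcl6 values were 662, 340 and 472, above every DMSO sample, with a log2 fold change of 1.45 (SE 0.30, adjusted p = 0.000543). Cxcr4 reached 129, 57 and 75, also above every DMSO sample, with a log2 fold change of 2.78. Foxo3, Cited2, Irs2 and Il7r were also called, with log2 fold changes of 1.63, 0.70, 1.03 and 0.89. The calls of Irs2 and Il7r were lost in 14 and 11 of 23 alternatives, among them each DMSO set alone. That of Cited2 was lost in 2, and those of Cxcr4, Foxo3 and Bcl6 in none. With the mitochondrial share as a covariate beside the replicate block, 3 of the 6 remained called, and the share of all genes in that fit was not computed. Pimasertib also had the highest mean of Sesn1 of all groups, 382, with a log2 fold change of 0.53 that did not pass. The other MEK inhibitors had no member call, except that with the replicate block, which pairs the samples of Refametinib, Cxcr4 and Bcl6 passed there (log2 fold changes of 1.51 and 0.87). With the block 1269 of all 12714 tested genes were higher and 319 lower in Refametinib, where 0 were called without it.

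Mubritinib, an ERBB inhibitor by designation, had 4 members higher, with only 1.84% of all genes called. Cxcr4 gave 116, 129 and 38, and its log2 fold change of 2.80 (SE 0.53, adjusted p = 0.000219) was the largest outside the PI3K axis. Irs2 gave 92, 159 and 58, Foxo3 82, 126 and 47, and Cited2 343, 365 and 267, with log2 fold changes of 1.39, 1.44 and 0.60. The Irs2 and Cited2 values lay above every DMSO sample, and those of Cxcr4 and Foxo3 overlapped the high DMSO library. Pacritinib, a JAK inhibitor, had Cxcr4 alone called (83, 84 and 26, with a log2 fold change of 2.25), with 0.173% of all genes called.

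Without replicate 2 of the CKI, the calls of Cxcr4, Irs2, Foxo3 and Cited2 in Mubritinib were lost, as was that of Cxcr4 in Pacritinib. Over all alternatives, Cxcr4 and Foxo3 in Mubritinib were lost in 3 and 5 of 22, and Irs2 and Cited2 in 10 and 9 of 23. Cxcr4 in Pacritinib was lost in 11 of 22. Irs2 and Cited2 in Mubritinib and Cxcr4 in Pacritinib were also lost with each DMSO set alone.

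The lower calls outside the PI3K axis came from Midostaurin and 2 JAK inhibitors. Midostaurin, a multikinase inhibitor whose designated targets include AKT, had 1 member higher and 3 lower, with 4.56% of all genes called. Cited2 fell to 85, 81 and 95, with a log2 fold change of -1.28 (SE 0.16, adjusted p = 5.37e-10). Ccng2 fell to 256, 220 and 189 (log2 fold change -1.10, SE 0.18, adjusted p = 4.53e-06) and Pik3ip1 to 21, 12 and 16 (log2 fold change -1.09, SE 0.33, adjusted p = 0.0298). All of these samples lay below every DMSO sample. Irs2, in contrast, rose to 104, 99 and 79, above every DMSO sample, with a log2 fold change of 1.37. The calls of Cited2 and Ccng2 passed in all 23 alternatives, whereas that of Pik3ip1 was lost in 12 of 22 and that of Irs2 in 6 of 23, both of them without replicate 1, 2 or 3 of every group. With the replicate block, which pairs its samples, Cxcr4 was also called higher (log2 fold change 1.17). That fit called 589 of all genes higher and 346 lower in Midostaurin, against 335 and 245 without the block.

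Filgotinib, a JAK inhibitor, had 1 member higher and 2 lower, with 20.7% of all genes called. Ccng2 fell to 236, 268 and 199 (log2 fold change -1.02, SE 0.18, adjusted p = 7.69e-06) and Pik3ip1 to 14, 12 and 14 (log2 fold change -1.34, SE 0.33, adjusted p = 0.00125), below every DMSO sample. Bcl6 rose to 488, 555 and 275 (log2 fold change 1.28, SE 0.30). Momelotinib had Ccng2 alone called, at 302, 252 and 246 (log2 fold change -0.83), with 0.787% of all genes called, and with the replicate block, which pairs its samples, Cited2 as well (log2 fold change -0.55). With the block 139 of all genes were higher and 87 lower in Momelotinib, against 48 and 52 without it. BMS911543 had Bcl6 alone called, at 408, 452 and 282 (log2 fold change 1.11), with 8.55% of all genes called. Without replicate 2 of the CKI the calls of Ccng2 in Momelotinib and Bcl6 in BMS911543 were lost. Over all 23 alternatives they were lost in 6 and 5, while Ccng2 and Pik3ip1 in Filgotinib passed in every alternative run. The fitted log2 fold changes of Ccng2 and of Pik3ip1 were below 0 in all 6 JAK inhibitors, with medians of -0.34 and -0.48, although these 6 comparisons share the DMSO samples. The same sign was common in the panel, since Ccng2 was above its DMSO mean in 11 and Pik3ip1 in 14 of the 49 other CKIs.

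**Figure D3:**
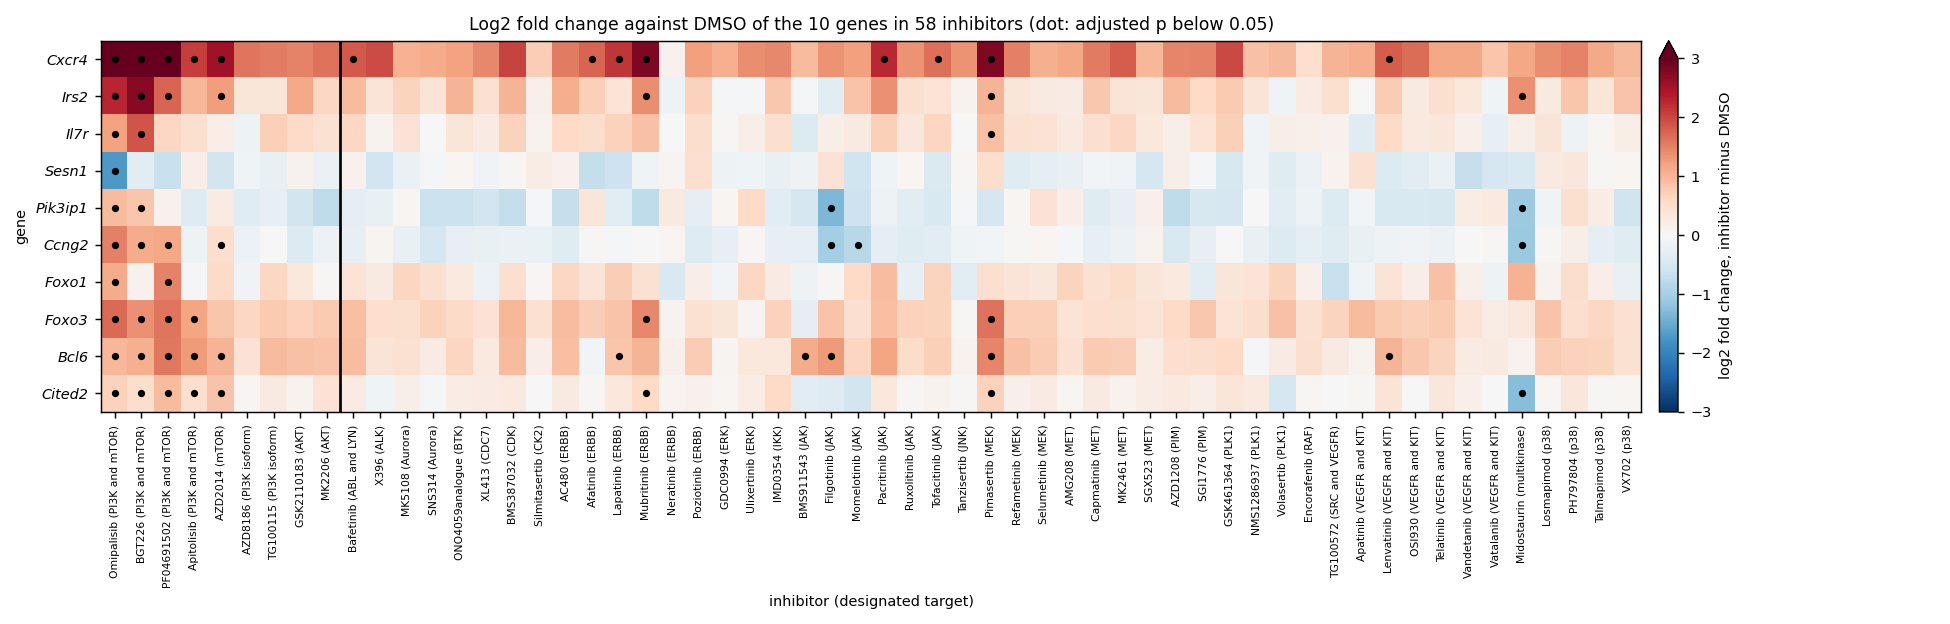
Log2 fold change against DMSO of the 10 genes (rows) in the 58 CKIs (columns, ordered by designated target), with dots where the adjusted p-value was below 0.05 and the color scale held at 3. The 9 PI3K axis CKIs stand left of the line and hold 34 of the dots, and the other 49 hold 27.

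**Figure D4:**
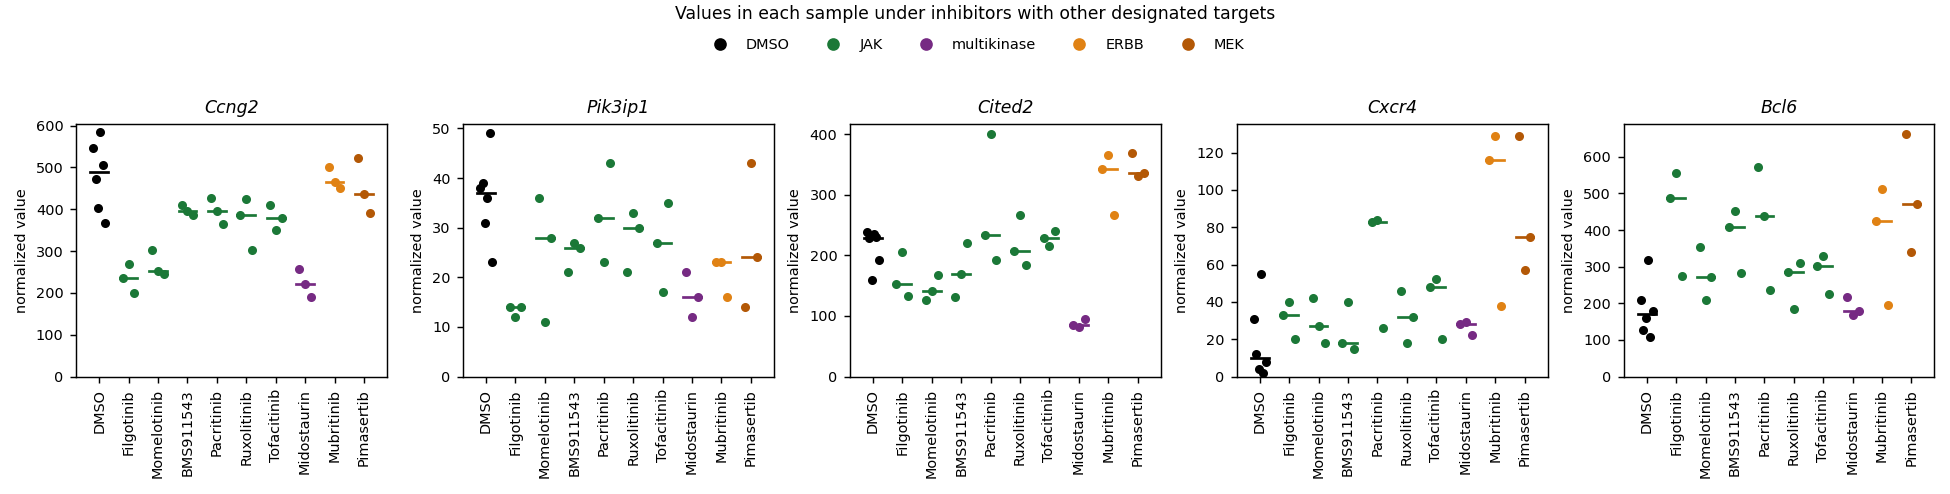
Normalized values (linear axis from 0) of 5 of the genes in DMSO, the 6 JAK inhibitors, Midostaurin, Mubritinib and Pimasertib, with a line at each group's median. Ccng2 in Filgotinib, Momelotinib and Midostaurin lies at or below 302, under the lowest DMSO sample at 367.

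Among themselves the 10 genes formed no single pattern over the 59 groups. Spearman's rho between group means, over 45 pairs of genes, had a median of 0.31 and ranged from -0.40 to 0.74, and 13 pairs were below 0. These values describe groups that share libraries and scaling, and carry no test. The pairs with the highest rho were Cxcr4 with Il7r (0.74), Cxcr4 with Bcl6 (0.67) and Pik3ip1 with Ccng2 (0.66). Within the 49 other CKIs alone these were 0.73, 0.58 and 0.61. Sesn1 was the most distant member, with rho of -0.40 to Foxo1 and -0.40 to Ccng2.

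The genes outside the set with the most similar order of group means were named for each member, 3 at most, by Spearman's rho over the 59 groups. Il7r was nearest to P2ry10b (0.91), Vipas39 (0.90) and Havcr2 (0.89), and Cxcr4 to Klhl6 (0.84), Tmub2 (0.83) and Hbp1 (0.83). Ccng2 was nearest to Parp9, Gbp7 and Cyren (0.83, 0.83 and 0.82), Pik3ip1 to Irf1, Trim14 and Enpp4 (0.79, 0.77 and 0.74), and Cited2 to Ifnb1, Abl2 and Mmp12 (0.78, 0.76 and 0.76). Parp9, Gbp7, Irf1 and Trim14 are known as interferon-induced genes, and Ifnb1 encodes interferon beta. Bcl6 was nearest to Clk1, Tcf12 and Gm41608 (0.82, 0.81 and 0.80), Foxo3 to Arl4c, Gas2l3 and Nsa2-ps1 (0.80, 0.77 and 0.75), and Irs2 to Zfand2a, Zfp512 and Lyl1 (0.77, 0.74 and 0.74). Sesn1 was nearest to Eepd1, Kif23 and Aurkb (0.78, 0.74 and 0.71), the latter 2 of which act in mitosis. Foxo1 had the lowest values, with Sntb2, Abhd17b and Slc2a9 (0.61, 0.59 and 0.59). By Pearson's r 11 of these 30 genes were again among the nearest 3.

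The 5 lists of related genes were set beside the 10 in the same comparisons. Of 40 other genes linked to FOXO factors, 29 were tested, and 70 of their 261 pairs with the 9 CKIs were higher and 3 lower, while of all genes 7.8% of pairs were higher and 4.05% lower. The median log2 fold change of the list was 0.80 in Omipalisib, 0.69 in BGT226 and 0.78 in PF04691502, where that of all genes was 0.12, 0.21 and 0.10. Txnip, the thioredoxin-interacting regulator of glucose uptake, was called higher in 5 CKIs, from 0.86 in Apitolisib to 1.75 in PF04691502 and BGT226. Its DMSO values ran from 352 through a median of 545.5 to 749, against 1504 to 2186 in BGT226. Foxo4 was called higher in 4 CKIs, with a largest log2 fold change of 1.52 in BGT226, at a low level of 1 to 13 in DMSO. Sod2 fell in 2 CKIs (by 0.32 in BGT226 and 0.33 in Apitolisib on the log2 scale) and Erbb3 in AZD2014 (by 0.69).

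The list of 38 components of the PI3K-AKT-mTOR pathway had 34 of 342 pairs higher and 14 lower, or 9.94% and 4.09%. With the replicate block the counts were 57 and 28, or 16.7% and 8.19%, where all genes had 13% and 7.29%. Pik3ca, the catalytic subunit PI3K alpha, was higher in 5 CKIs, with DMSO values from 51 to 127 against 138 to 256 in BGT226, and log2 fold changes from 0.81 in AZD2014 to 1.40 in BGT226. Inpp4b was higher in BGT226 and Omipalisib. Inppl1, the phosphatase SHIP2, fell in AZD2014 and MK2206 by 1.65 and 1.27 on the log2 scale, and Pik3r3 fell in AZD2014 by 1.13.

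The 25 tested sterol and fatty acid synthesis genes, targets of SREBP, had 4 of 225 pairs higher and 47 lower, or 1.78% and 20.9%. Cyp51, an enzyme of cholesterol synthesis, fell in 6 CKIs. Its values were 999 to 1280 in DMSO and 242, 244 and 259 in Omipalisib, a log2 fold change of -2.26 (SE 0.12). Sqle fell in 4 CKIs, by 1.38 in Omipalisib on the log2 scale. Nsdhl and Mvk were higher in Apitolisib, with log2 fold changes of 1.02 and 0.49.

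The lists of ATF4 and TFEB targets had calls in both directions. Of 189 pairs of the 21 tested ATF4 genes, 16 were higher and 11 lower, or 8.47% and 5.82%. With the replicate block 28 were higher and 26 lower, or 14.8% and 13.8%. Ddit3, the stress factor CHOP, rose to 566 to 1319 in BGT226 from 22 to 76 in DMSO, a log2 fold change of 4.56 (SE 0.46), and Nupr1 rose in Omipalisib by 2.43 on the log2 scale. Atf5 fell in AZD2014 by 1.97, and Ddit4, at 5 to 14 in DMSO, fell in BGT226 by 1.60. Of 216 pairs of the 24 lysosome and RAG genes, 21 were higher and 14 lower, or 9.72% and 6.48%. With the replicate block 38 were higher and 20 lower, or 17.6% and 9.26%. Fnip2 and Fnip1, partners of folliculin, were higher in BGT226 (2.81 and 2.04) and Omipalisib (2.01 and 1.84), while AZD2014 stood at -0.05 and 0.05. Tfe3 fell in 4 CKIs and the lysosomal channel gene Mcoln1 in 3, by 0.72 and 1.51 in AZD2014.

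**Figure D5:**
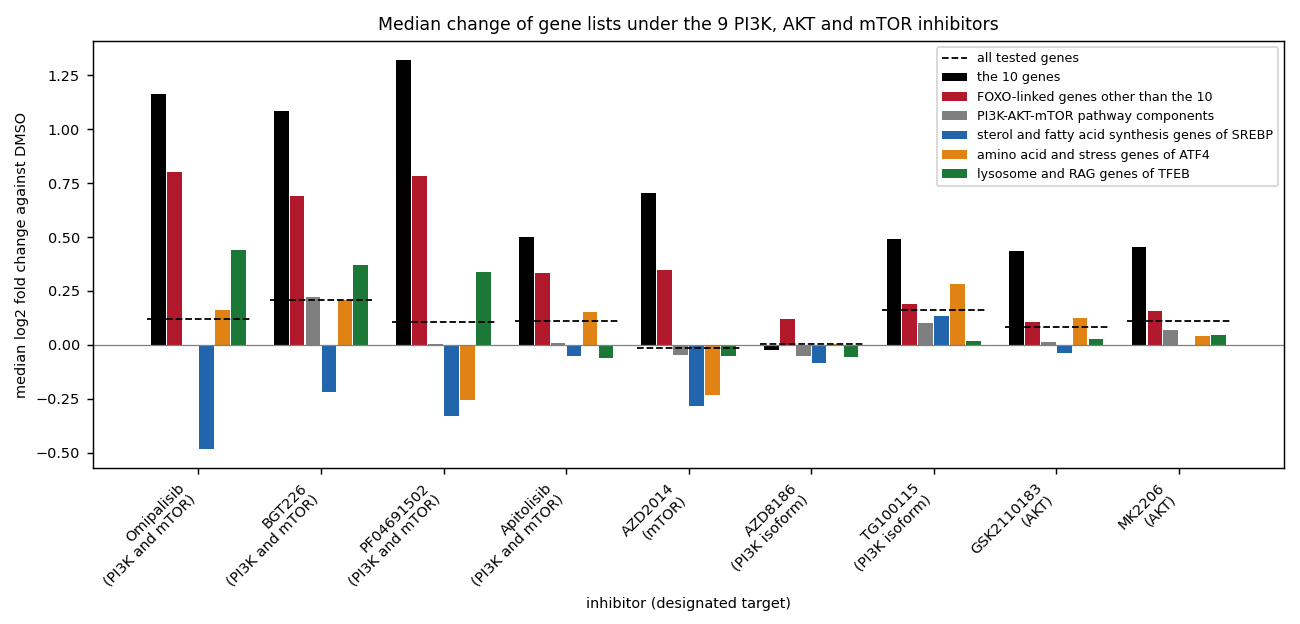
Median log2 fold change against DMSO of the 10 genes and of the 5 related lists under the 9 PI3K axis CKIs, with a dashed line at the median of all tested genes. The 10 genes reached 1.32 in PF04691502 where all genes stood at 0.10, and the sterol and fatty acid genes were lowest in Omipalisib at -0.48.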

How the data were processed

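RNA-seq of polyA RNA (SMART-seq2) was deposited for 180 BMDM samples. Per the labels and methods, the authors aligned reads to mm10 with TopHat2 2.1.1, kept 1 alignment per read, removed blacklisted regions with bedtools 2.29.2, counted reads on exons of curated RefSeq genes, scaled each sample on invariant genes and rounded. The deposited values are thus a score with no fixed unit, here called normalized values, and the authors tested them with DESeq2 (R 3.6.2). Since whole reads could not be recovered, no count test was run. Read depth is unknown beyond the totals of these values. All columns were matched to samples by name, and no 2 libraries of a group were identical.

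Values were tested as log2(value + 1) in limma 3.58.1 (R 4.3.3) with a variance trend, all 59 groups in 1 fit and each CKI against the 6 DMSO samples, over the 12714 of 45070 genes with a mean of at least 10. P-values were adjusted over all of them (Benjamini-Hochberg, threshold 0.05, two-sided). On simulated data with 200 changed genes in Omipalisib against DMSO, run on 12714 genes, 72% of changes of 1 and 99% of changes of 2 on the log2 scale were called. Differences within CKI classes were measured by moderated F statistics. The methods speak of independent biological replicates. Whether equal replicate numbers pair samples was checked by correlating deviations from group means with those of same-numbered DMSO samples. Every correlation was over 0.1 for 34 of 58 CKIs, 4 of them in the PI3K axis. For those whose results are described above, the block is given where it changes a call. It also changed calls in CKIs not described. In Lenvatinib, members called higher went from 2 to 5, and all genes called higher from 1446 to 2840.

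The members, the gene lists and the CKI classes (designated targets) were chosen with earlier results of these data known. Named in the text are all members with all 9 PI3K axis CKIs, per member, among other CKIs with a call, the 3 that rose most and the 3 that fell most, per list the 2 genes with the highest and the 2 with the lowest median change over the 9 CKIs among those called, and per member the 3 most similar genes. The 6 JAK inhibitors are set side by side as a choice made after their values were seen. Alternatives covered the pseudocount, filter, scaling, DMSO set, variance trend, samples in the fit, replicate block, mitochondrial share and each left-out replicate.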

Additional observations from a re-analysis of the deposited data

Results flagged for a closer look

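In the 6 DMSO samples, replicate 1 of set 2 lay far from the rest for 2 of the 10 genes tested for this. Foxo1 was 19 there and 5 to 10 in the other samples, and Foxo3 was 68 there and 17 to 35 in the others. For a single gene, chance alone gives such a gap in about 1 of 20 groups. That rate does not describe 10 genes read in the same 6 libraries. The same library held the highest DMSO value of 7 of the 10 genes.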

How the results depend on the processing

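No call in a named member turned direction under any alternative. Depth limits Foxo1 and Cxcr4 most, which stood near 10 in DMSO. With only genes of a mean of at least 50, calls of the 10 genes fell from 33 higher to 20 in the PI3K axis CKIs and from 21 to 13 in the other CKIs, and F tests passed among the 9 CKIs from 8 to 5, since fewer members were tested. With only the compared groups in the fit there were 21 and 6, and fewer samples then estimate the spread. The lists then gave 46 calls for FOXO (73 before), 23 for PI3K components (48), 13 for ATF4 (27) and 21 for TFEB (35). With DMSO set 1 alone, other CKIs had 10 higher calls, PI3K components 31 and ATF4 genes 17, and with set 2 alone other CKIs had 8. Lower calls in other CKIs rose from 6 to 10 under the median of ratios. The cause of these changes was not tested.

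The replicate block lost none of the 34 calls in the PI3K axis and added 10. Of the 10 added, Il7r in PF04691502, Foxo3 in AZD2014 and 3 in MK2206 belong to CKIs that failed the pairing check. Their mean correlations with DMSO samples of the same number were 0.23 in PF04691502, 0.20 in AZD2014 and 0.06 in MK2206. With DMSO samples of other numbers they were -0.11, -0.10 and -0.03. The check required every correlation to pass, so failing it does not show that samples of equal number are unrelated. In the other CKIs the block gave 52 higher and 10 lower calls (34 and 10 with the mitochondrial share). In the lists it gave 85 for PI3K components, 54 for ATF4 and 58 for TFEB. Calls over all genes rose too, from 7.8% to 13% of pairs higher in the 9 CKIs.

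The class difference of Cxcr4 (0.72) became 0.50 with Midostaurin counted among the 9 and 1.26 with means over CKIs, which also gave 0.59 for Ccng2, 0.17 for Foxo1 and 0.46 for Foxo3. That of Irs2 became 0.59 with a pseudocount of 10 and 0.79 with Midostaurin. By Pearson's r 11 of 30 similar genes recurred.

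Leaving out 1 replicate at a time gave 20 to 44 higher calls and 1 lower in the PI3K axis, lowest without replicate 2 and highest without DMSO set 2 replicate 1, and 5 to 46 higher and 4 to 9 lower in the other CKIs. Lists ranged from 50 to 87 (FOXO), 27 to 75 (PI3K components), 36 to 56 (SREBP), 15 to 36 (ATF4) and 16 to 45 (TFEB). F tests passed for 5 to 8 genes among the 9 CKIs and 2 to 6 among the 49. Class differences ranged from 0.56 to 1.03 for Cxcr4 and from -0.10 to 0.18 for Foxo1.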
